A study of Caenorhabditis elegans with 2 samples.

Results

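The genes described here are 10 maternal RNA-binding protein genes of Caenorhabditis elegans, taken by name from a list of oocyte and early-embryo regulators: mex-1, mex-3, mex-5, mex-6, pos-1, oma-1, oma-2, spn-4, gld-1 and puf-5. They are 10 of 19973 protein-coding genes, and the rule that picks them uses their names and no threshold on a measured value, though the list was drawn up with earlier results of these data known. The data are a chromatin immunoprecipitation and sequencing (ChIP-seq) profile of MADF-3, a protein of the MADF family, whose domain resembles that of Myb and binds DNA. There is 1 group, whole young adult worms of strain RW12241 at 63 hours, synchronised by bleaching and starvation at the L1 stage, with 2 biological replicates. All carry a CRISPR insertion of TY1, EGFP and 3xFLAG at madf-3 itself (st12241, chromosome II), and the immunoprecipitation used an antibody to GFP. No comparison between genotypes or treatments exists, the worms come from 1 edited strain, and no untagged or input library was used here. Because whole animals were used, signal from the germline and from the body cannot be told apart.

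Oocytes are loaded with messenger RNAs that stay silent until after fertilisation, when the early embryo, before its own genome takes over, relies on translational control to set which cells become germline and which become soma. The proteins encoded here bind such messages, often in their untranslated regions, and help set when and where they are translated. MEX-1, MEX-5, MEX-6, POS-1, OMA-1 and OMA-2 carry paired CCCH zinc fingers, MEX-3 and GLD-1 have KH domains, SPN-4 has an RNA recognition motif and PUF-5 is a Pumilio (PUF) protein.

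MADF-3 peaks stood within 500 bp upstream of 6 of the 10 genes: mex-1, mex-5, mex-6, pos-1, oma-2 and spn-4. A promoter peak here means a summit of the series-wide thresholded list within 500 bp of the annotated 5' end on either side. That list holds 2741 peaks that passed the authors' irreproducible discovery rate (IDR) threshold, a score for how well peaks keep their rank between compared sets. The share of all 19973 protein-coding genes with such a peak was 6.26% (1251 genes). All 6 summits lay upstream, between -409 and -151 bp with a median of -300 bp, where negative is upstream. Over the 1251 genes, 74.7% of the strongest summits were upstream and the median was -151 bp. The other 4 genes, mex-3, oma-1, gld-1 and puf-5, had none. Of the 6 promoter summits, 3 lay within 500 bp of the 5' ends of 2 or more genes, at mex-5, pos-1 and spn-4. The same held for 34.9% of the 1251 genes. Because of how the genes were listed, the counts are given as a description and carry no test.

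The bases under the 6 promoter summits are printed because the same short word recurs in 4 of them. Each line runs 50 bp to both sides of the summit, on the strand of the named gene, from the RefSeq genome of assembly WBcel235, the same assembly as ce11. Capitals mark the word ACCGTA and the E2F-like word TTTCCCGC, read on either strand (TACGGT and GCGGGAAA). The windows are chrII:11968391-11968491 for mex-1, chrIV:13353345-13353445 for mex-5, chrII:9523715-9523815 for mex-6, chrV:8413764-8413864 for pos-1, chrV:8028994-8029094 for oma-2 and chrV:6785004-6785104 for spn-4. The last is on the minus strand and the other 5 are on the plus strand.
mex-1: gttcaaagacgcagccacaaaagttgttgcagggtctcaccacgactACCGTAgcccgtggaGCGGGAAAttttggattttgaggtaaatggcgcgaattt
mex-5: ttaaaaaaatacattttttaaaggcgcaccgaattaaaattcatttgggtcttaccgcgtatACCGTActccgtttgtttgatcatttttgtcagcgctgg
mex-6: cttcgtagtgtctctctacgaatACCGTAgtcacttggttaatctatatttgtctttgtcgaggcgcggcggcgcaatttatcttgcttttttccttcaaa
oma-2: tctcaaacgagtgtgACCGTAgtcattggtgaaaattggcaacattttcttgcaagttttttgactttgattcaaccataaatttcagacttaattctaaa
spn-4: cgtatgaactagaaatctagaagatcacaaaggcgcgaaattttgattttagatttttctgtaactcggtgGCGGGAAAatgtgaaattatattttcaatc
pos-1: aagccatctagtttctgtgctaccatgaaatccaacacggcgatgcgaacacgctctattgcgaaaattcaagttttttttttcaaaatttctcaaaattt

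The word ACCGTA lay near the summit at mex-1, mex-5, mex-6 and oma-2, and on the strand of the gene in each of these lines. Its centre was at -0.5 bp from the mex-1 summit, -24.5 bp at mex-6, 14.5 bp at mex-5 and -32.5 bp at oma-2. A further copy on the opposite strand lay at -51.5 bp from the mex-1 summit, partly before the first printed base. Neither pos-1 nor spn-4 held it within 100 bp of the summit. Of all 2741 thresholded peaks, 10.4% held it within 100 bp of the summit, against 5.47% of windows of the same length centred 500 bp away on one side.

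The share with the word was higher among strong peaks. Of the 100 strongest peaks 34% held it at the summit and 3% in the flanking window, and of the 1741 weakest 8.04% and 5.74%. Only mex-1 is among the 100 strongest, and mex-5, mex-6 and oma-2 are among the 1741 weakest. The word was picked by reading these lines, so the 4 of 6 is a description. From 250 bp before to 50 bp after the 5' end, 2 of 10 members held it, mex-1 and gld-1, against 8.14% of all promoters. In the wider window of 500 bp on either side, chosen later and including the summits the word was read from, 7 of 10 members and 24.9% of all protein-coding genes held it. One of the 7, oma-1, carried it at -262.5 bp.

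**Figure D1:**
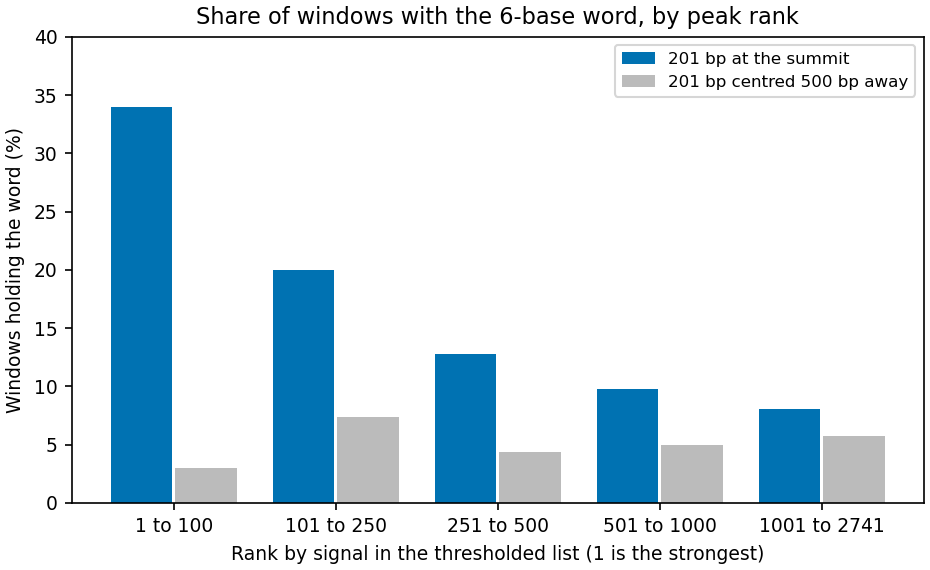
Share of thresholded peaks (%, y axis) with the word ACCGTA on either strand within 100 bp of the summit (blue) or of a point 500 bp away (grey), by rank of the peak's signal (x axis, 1 is the strongest). The share at the summit was 34% among the 100 strongest peaks and 8.04% among ranks 1001 to 2741, with 3% and 5.74% in the flanking windows.

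Of the other words, TTTCCCGC, a word like the binding sequence of E2F factors, was within 100 bp of the promoter summit at mex-1 and spn-4, 2 of 6, and of 2.52% of all peaks. In the window from 250 bp before to 50 bp after the 5' end, mex-1 and spn-4 again held it, against 1.57% of all promoters. TTTGGCGC, CTCCGCCC and CACGTG were at 0 of the 6 promoter summits, and at 1.24%, 1.9% and 5.18% of all peaks. In the promoter window TTTGGCGC was held by 2 of 10 members, oma-1 and oma-2, against 0.946% of all promoters. CTCCGCCC and CACGTG were in 0 of 10 member promoters, and in 2.41% and 5.84% of all promoters. AGATAA was at 1 (mex-6), against 7.41% of all peaks, and TTTCAG, which resembles a splice acceptor, at 2 (pos-1 and oma-2), against 23.5%. In the promoter window AGATAA was in 1 of 10 members, gld-1, against 21.2% of all promoters, and TTTCAG in 7 of 10 against 51.7%. The 8-base word with the largest excess of peaks at the summit over the flank in the whole list, AGACGCAG, was at mex-1 alone of the 6, and at 5.58% of all peaks. The GC content within 100 bp of the 6 summits ran from 33.3% at spn-4 to 39.8% at mex-1 with a median of 35%, against a median of 43.8% over all thresholded summits. In the promoter window the median was 33.2% for the 10 members and 34.2% for all protein-coding genes, so the GC content of the 6 summits was near that of promoters in general. A missing word says only that its letters are not in the window.

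mex-1, whose protein is needed for correct cell fates in the early embryo, had the strongest promoter peak of the group. Its peak on chromosome II, from 11968354 to 11968530, was 177 bp wide and intergenic, with the summit at -196 bp. The signal, which is the peak caller's own strength in the authors' units, was 340.2 in replicate 1 and 358 in replicate 2. The peak was rank 43 of 77320 in the ranked list of replicate 1 and rank 33 of 79846 in that of replicate 2. In the thresholded list it was rank 25 of 2741. The gene (WBGene00003228) spans 11968637 to 11972330 on the plus strand.

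The mex-1 peak is 1 of a pair. A stronger peak, from 11967613 to 11967844, had its summit at -916 bp from mex-1 and at -177 bp from W03C9.5, a divergent gene whose 5' end is 1093 bp away. Its signal was 564.8 in replicate 1 and 497.1 in replicate 2, rank 13 in the thresholded list. The summit at -196 bp from mex-1 was at -897 bp from W03C9.5, so no other protein-coding 5' end lay within 500 bp of it. Both peaks were met in the thresholded list of each replicate. Those lists hold 962 peaks for replicate 1 and 863 for replicate 2, against 2741 in the series-wide list.

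pos-1 encodes a CCCH protein of the posterior, germline-forming cells of the embryo that represses translation of the Notch receptor message glp-1. Its promoter peak, on V from 8413704 to 8413923, was intergenic with the summit at -272 bp. The signal was 63.39 in replicate 1 and 78.71 in replicate 2, and the peak was rank 307 in the thresholded list. The replicates placed it alike, at rank 540 and 357 of their ranked lists, and it was met in the thresholded list of each. The summit was at -332 bp from vha-18, a divergent vacuolar ATPase gene, so the peak counts for both genes. pos-1 (WBGene00004078) spans 8414086 to 8415254.

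mex-5 and mex-6 are close paralogues whose proteins gather at the anterior of the zygote and act together in separating soma from germline. At mex-5 the peak on IV from 13353285 to 13353504 had a signal of 43.51 in replicate 1 and 28.52 in replicate 2, with the summit at -328 bp. At mex-6 the peak on II from 9523655 to 9523874 had 42.74 in replicate 1 and 30.35 in replicate 2, with the summit at -409 bp. The paralogues were thus alike in signal, and in both the higher value was that of replicate 1.

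They differed in their surroundings. The mex-5 summit lay between divergent genes and was nearer to rec-8, a meiotic cohesin subunit, at -202 bp. At mex-6 the upstream gene AH6.17 runs in the same direction, and no other 5' end was within 500 bp. In the thresholded list the peaks were rank 1959 for mex-5 and 1609 for mex-6. The mex-6 peak was met in the thresholded list of replicate 1 and the mex-5 peak in that of neither replicate. The mex-5 score was 800 in replicate 1 and 48 in replicate 2, against lowest scores of 830 and 831 in those lists. The mex-5 gene (WBGene00003230) spans 13353723 to 13356104 and mex-6 (WBGene00003231) 9524174 to 9526359, both on the plus strand.

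oma-1 and oma-2 encode redundant CCCH proteins required for oocyte maturation, and here the pair differed in the thresholded list. oma-2 (WBGene00003865, V from 8029439 to 8031214) had a promoter peak from 8028934 to 8029153, at -395 bp. It had a signal of 34.49 in replicate 1 and 29.23 in replicate 2. It was the weakest of the 6, rank 2310 of 2741 with a score of 895, and was met in the thresholded list of neither replicate.

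oma-1 (WBGene00003864, IV from 8888976 to 8890999) had a promoter peak in replicate 1 only. The thresholded list of replicate 1 held a peak from 8888595 to 8888784, at -286 bp, with a signal of 62.36 and rank 562 of the ranked peaks, above those of mex-5, mex-6, oma-2 and spn-4 in that replicate. No ranked peak of replicate 2 overlapped it, and the nearest summit there was 739 bp away, at 453 bp inside the gene, with a signal of 15.76. The ranked peaks called on the replicates together included none at that place. The word ACCGTA lay at -262.5 bp, close to that summit, though 24.9% of all protein-coding genes held it within 500 bp of the 5' end. Whether the peak is one of the protein or of 1 library was not tested.

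spn-4 encodes an RRM protein that works beside POS-1 and is needed for spindle orientation in the early embryo. Its promoter peak, on V from 6784944 to 6785163, lay at -151 bp, the nearest of the 6 to its gene. The signal was 48.79 in replicate 1 and 28.17 in replicate 2. This was the widest gap between replicates among the 6, with a log2 ratio of 0.79. The summit was at -397 bp from the divergent gene spe-39. The list of 2631 peaks that the authors name conservative held a further peak in the same space at -416 bp from spn-4 and -132 bp from spe-39, with 33.93 in replicate 1 and 28.1 in replicate 2. spn-4 (WBGene00004984) spans 6783187 to 6784903 on the minus strand.

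Replicate 1 gave the higher signal at 4 of the 6 promoter peaks, mex-5, mex-6, oma-2 and spn-4, and replicate 2 at mex-1 and pos-1. The log2 ratio of replicate 1 over replicate 2 ran from -0.31 at pos-1 to 0.79 at spn-4. Over 1011 strongest promoter peaks with a value in both replicates, the 5th to 95th percentiles were -0.80 to 0.85 with a median of 0.03. All 6 ratios lie inside that range. The sources used here do not state how each replicate's list was scaled, so a ratio may also hold a difference in scale.

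gld-1, mex-3 and puf-5 had ranked peaks at the 5' end that did not pass the threshold. GLD-1 is a translational repressor needed for oocytes to pass through meiosis. At gld-1 (WBGene00001595, I from 7695681 to 7698222) the ranked peaks of both replicates together included one at 34 bp downstream of the 5' end with a score of 829, 1 below the lowest score of 830 in the thresholded list. Its signal there was 21.55 in replicate 1 and 32.74 in replicate 2. In replicate 2 this was above the promoter peaks of mex-5, mex-6, oma-2 and spn-4, and in replicate 1 below them. Both replicates thus had a ranked peak at this place, though 60.4% of genes had one at the promoter in replicate 1 and 63% in replicate 2. The threshold was missed narrowly only in the ranked peaks of both replicates together. The scores were 162 in replicate 1 and 317 in replicate 2, against lowest scores of 830 and 831 in their thresholded lists.

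PUF-5 acts late in oogenesis and, with its relatives PUF-6 and PUF-7, represses maternal messages. At puf-5 (WBGene00004241, II from 8575541 to 8577787) the strongest ranked peak had 21.14 in replicate 1, at -122 bp, and 21.54 in replicate 2, at 211 bp, so the strongest peaks were at different places. Replicate 1 also had a weaker peak of 5.916 at 164 bp, which overlapped that of replicate 2. MEX-3 represses the message of pal-1, a homeobox gene of posterior fate. At mex-3 (WBGene00003229, I from 127285 to 134270) the strongest had 11.98 in replicate 1, at 130 bp, and 11.34 in replicate 2, at -138 bp, the lowest values of the group.

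A peak did lie inside mex-3. It was in an intron at 1083 bp from the 5' end, on I from 128258 to 128477, rank 368 in the thresholded list. The signal was 63.34 in replicate 1 and 64.21 in replicate 2, and both replicates' thresholded lists met it. A shorter annotated transcript of mex-3 starts 1412 bp into the gene, and the summit was at -329 bp from that start. Counting every transcript start in place of the gene start would thus make mex-3 a 7th gene with a promoter peak, against 6.88% of all genes under that rule. The word ACCGTA was also found here, at -27.5 bp from the summit. Within 100 bp it was at 10.4% of all thresholded summits and at 12.8% of those ranked 251 to 500.

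**Figure D2:**
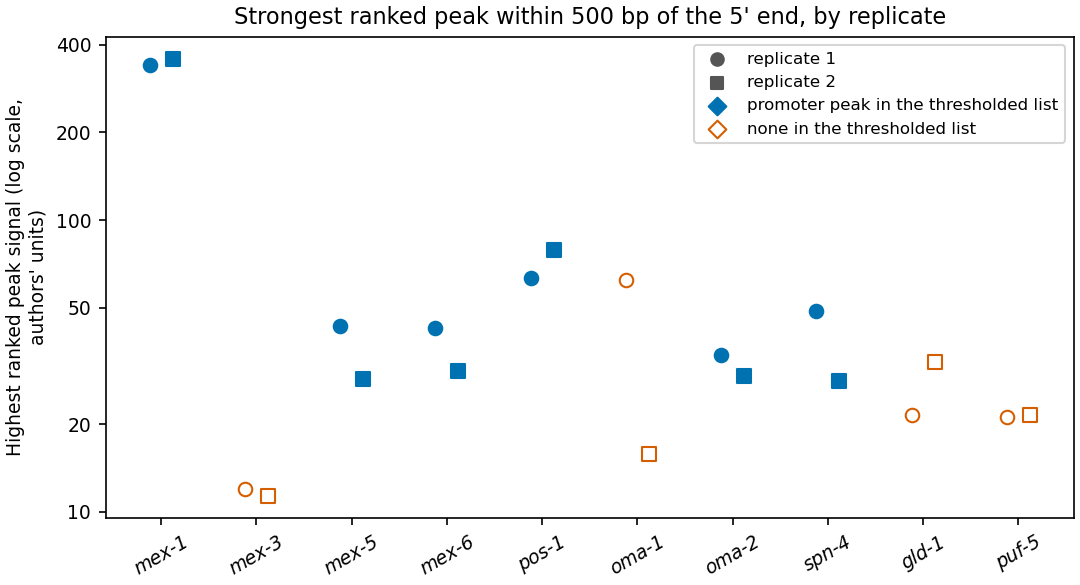
Highest signal of a ranked peak with its summit within 500 bp of the 5' end (y axis, log scale, authors' units) for each of the 10 genes in replicate 1 (circles) and replicate 2 (squares). Filled blue marks have a promoter peak in the thresholded list and open orange marks do not. mex-1 stands above the others at 340.2 and 358, and oma-1 has 62.36 in replicate 1 and 15.76 in replicate 2.

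Set against every gene, most of the members were near the top. This is a description, since the members and the related lists were chosen with earlier results of these data known. Each gene was ranked by the strongest ranked peak at its 5' end, a measure that needs no threshold and is free of a list's scaling. A ranked peak alone says little, since 60.4% of genes had one in replicate 1 and 63% in replicate 2, and all 10 members had one in both. The mean percentile among 19973 genes was 99.8 ± 0.0 for mex-1 and 98.6 ± 0.4 for pos-1 (SD, n = 2 for each). It was between 92.9 and 94.4 for mex-5, mex-6, oma-2 and spn-4. Each of these was higher in replicate 1, from 94.6 to 97.3, than in replicate 2, from 90.2 to 92.2. gld-1 followed at 86.3 ± 10.5, oma-1 at 78.7 ± 27.6 and puf-5 at 77.9 ± 0.0, while mex-3 was at 46.8 ± 2.6 (SD, n = 2 for each). At oma-1, puf-5 and mex-3 the strongest peaks of the replicates were at different places, so the SD is not that of 1 site. The median of the 10 was 93.3 and that of all genes 48.3. Most lists of related genes, described below, were above all genes too. Their medians were 83.7 for other PUF genes, 82.7 for germline translational control and 70.9 for direct or indirect regulators of these proteins. The median was 62.5 for genes whose messages these proteins are known to bind and 19.2 for other CCCH genes.

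The counts differed between lists. The conservative list put a promoter peak at the same 6, against 6.14% of all genes. In replicate 1's own thresholded list 5 did, mex-1, mex-6, pos-1, oma-1 and spn-4, against 3.02% of all genes. In replicate 2's there were 2, mex-1 and pos-1, against 2.85%. These lists are shorter, with 962 peaks in replicate 1 and 863 in replicate 2, against 2741 series-wide. The genes that both replicates called by themselves were therefore mex-1 and pos-1.

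Peaks were also found at the other end of these genes. Of the 10, 7 had a summit within 500 bp of the annotated 3' end, namely mex-1, mex-5, pos-1, oma-2, spn-4, gld-1 and puf-5, against 6.08% of all protein-coding genes. This count was made after the positions of the peaks had been seen and is a description. Counted from the 3' end, the summits ran from -308 bp at gld-1, inside the gene, to 144 bp beyond it at mex-1. Different peaks at both ends were found at 5 genes, mex-1, mex-5, pos-1, oma-2 and spn-4, compared with 1.48% of all genes.

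By the mean of the replicates the strongest of the 3' peaks was that of pos-1, though in replicate 2 the puf-5 peak was higher. It lay in the 3' UTR, on V from 8415126 to 8415345 and at -18 bp from the end of the gene. The signal was 78.77 in replicate 1 and 39.35 in replicate 2, a log2 ratio of 1.00 and the widest gap between replicates of the 16 peaks in these loci. Over 2655 thresholded peaks with a value in both replicates, the 5th to 95th percentiles were -0.85 to 0.88. The ratio of 1.00 lay above that range. In replicate 1 this 3' peak was higher than the peak at the pos-1 promoter, and in replicate 2 lower. It held the word ACCGTA on the opposite strand at 40.5 and 81.5 bp from the summit. That was 1 of the 7 summits at 3' ends, against 10.4% of all thresholded peaks, for a word picked from the promoter lines.

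The spn-4 summit was at -67 bp from the end of the gene, in the 3' UTR, with 54.59 in replicate 1 and 39.17 in replicate 2. At puf-5 the 3' UTR summit, at -129 bp, had 45.64 in replicate 1 and 46.24 in replicate 2. Both were stronger than the strongest 5' peak of the same gene in each replicate, and puf-5 had no promoter peak at all. The gld-1 summit, also in the 3' UTR, had 37.97 in replicate 1 and 31.18 in replicate 2. At oma-2 the values were 18.87 in replicate 1 and 27.62 in replicate 2, at -4 bp.

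The last of these 3' peaks lay in neighbouring genes. At mex-5 the summit was 37 bp beyond the end, in the 3' UTR of the convergent gene W02A2.8, with 38.75 in replicate 1 and 37.03 in replicate 2. At mex-1 it was in coding sequence of acbp-6, which overlaps mex-1 on the other strand, with 23.02 in replicate 1 and 32.63 in replicate 2. mex-5 had 1 more peak, in an intron at 1170 bp from the 5' end, with 35.17 in replicate 1 and 23.86 in replicate 2. In all, the 10 loci held 16 thresholded peaks, 6 at the 5' end, 7 at the 3' end and 3 elsewhere.

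**Figure D3:**
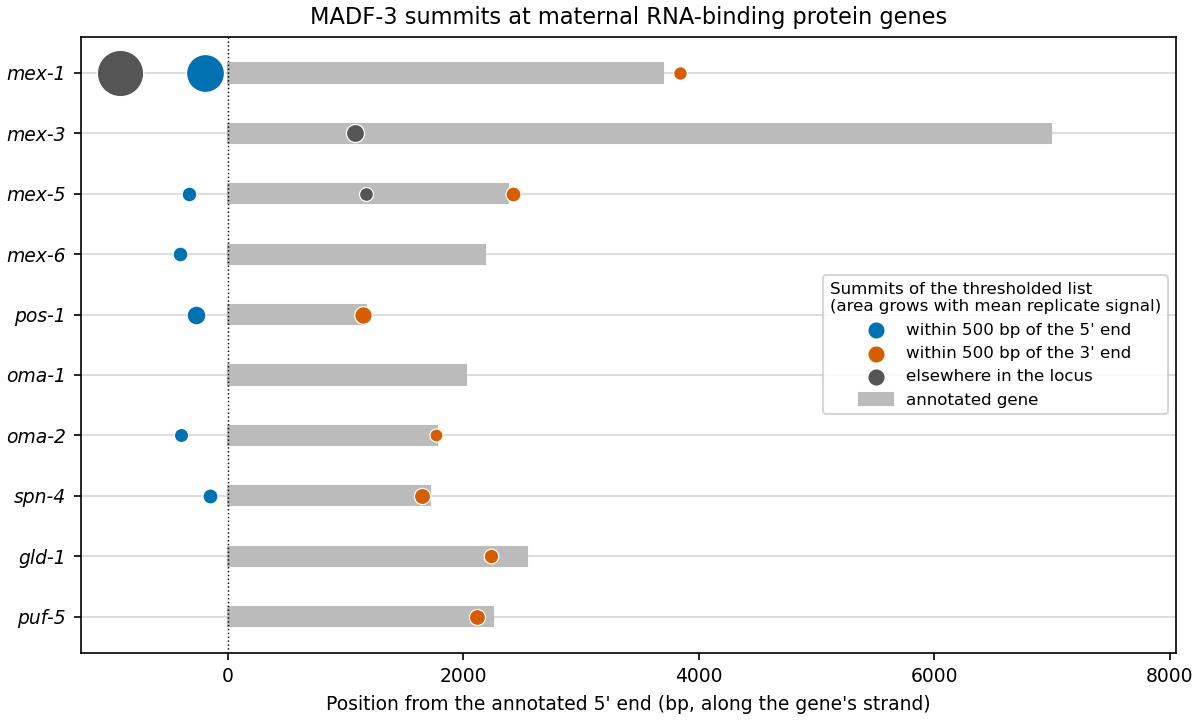
Summits of the thresholded list at the 10 genes (rows), by position from the annotated 5' end along the gene's own strand (x axis, bp), with the annotated gene as a grey bar. Circle area grows with the mean signal of the replicates. Of the 10 genes, 6 have a summit within 500 bp of the 5' end (blue) and 7 within 500 bp of the 3' end (orange). At the 3' end mex-3, mex-6 and oma-1 have none.

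Part of the 3' signal lay close to the next gene. Of the 7 summits, 3 lay less than 500 bp from the 5' end of the next gene on the same strand: vars-1 after oma-2, at -201 bp, T23G11.10 after gld-1, at -387 bp, and F54C9.9 after puf-5, at -391 bp. Counting a protein-coding 5' end on either strand within 500 bp of the summit, 3 of the 7 members with a 3' peak (42.9%) had one, against 36% of all genes with a 3' peak. With such summits set aside, 4 of 10 members still had a 3' peak, mex-1, mex-5, pos-1 and spn-4, against 3.95% of all genes. Whether a 3' summit belongs to the gene it ends or to the next one cannot be told apart from peak positions.

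The summit was inside the gene's own annotated 3' UTR at 5 of 10 members, pos-1, oma-2, spn-4, gld-1 and puf-5, compared with 0.656% of all protein-coding genes. The 3' UTRs of the members are long, from 294 bp at oma-2 to 812 bp at gld-1, with a median of 466.5 bp, against 131 bp over the 16792 genes that have one annotated. Among genes with a 3' UTR of at least 294 bp, 2.73% held a summit in it. The part that UTR length plays beyond this was not tested.

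Fewer 3' peaks were in the replicates' own lists. There 2 members had one in replicate 1, pos-1 and spn-4, against 2.38% of all genes, and 2 in replicate 2, pos-1 and puf-5, against 2% of all genes. In the conservative list there were 6, mex-5, pos-1, oma-1, spn-4, gld-1 and puf-5, against 5.84%. The conservative peak at oma-1 was 472 bp beyond the gene and 9 bp inside spr-2, the next gene on the same strand.

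Related genes were counted in the same way, with no test, and stand beside the 6.26% of all genes with a promoter peak and the 6.08% with a 3' peak. Of 9 other PUF genes 4 had a promoter peak: puf-9, with a signal of 76.16 ± 12.91, puf-3 with 59.45 ± 22.38, puf-7 with 34.93 ± 7.28 and puf-6 with 32.79 ± 16.55 (SD, n = 2 for each). puf-6 and puf-7, the partners of puf-5, thus had a promoter peak while puf-5 did not. Their summits lay at -125 bp for puf-6 and -133 bp for puf-7. Whether the reads of puf-6 and puf-7 are separable was not tested. Of 7 other CCCH genes 1 had a promoter peak, ccch-3, with 52.07 ± 4.04 (SD, n = 2).

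Among 24 genes of germline translational control 7 had a promoter peak (29.2%, against 6.26% of all genes) and 7 a 3' peak (29.2%, against 6.08%). By the mean of the replicates the strongest at promoters was atx-2, the ataxin-2 homologue, with 87.84 ± 9.99. Next were the cold-shock domain gene cey-2 with 61.95 ± 20.54 and the RNA helicase gene cgh-1 with 45.08 ± 9.14 (SD, n = 2 for each). A further called gene, cey-3, had 46.48 in replicate 2 and no overlapping ranked peak in replicate 1, so it had no mean and was not ordered. Of 10 genes listed as regulators of these proteins, directly or indirectly, 3 had a promoter peak. They were the Polo kinase gene plk-1 with 60.66 ± 6.73, egg-5 with 52.56 ± 4.47 and egg-4 with 47.4 ± 14.53 (SD, n = 2 for each). egg-4 and egg-5 are near-identical copies, so their reads may not be fully separable. Of 13 genes whose messages these proteins are known to bind, 3 had a promoter peak: rme-2, the yolk receptor gene, with 47.88 ± 0.09, neg-1 with 37.52 ± 10.2 and skn-1 with 32.27 ± 11.82 (SD, n = 2 for each). A 3' peak was found at 0 of those 13, against 6.08% of all genes, which is near the background for a list of this size. All of these signals are below that of mex-1.

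**Figure D4:**
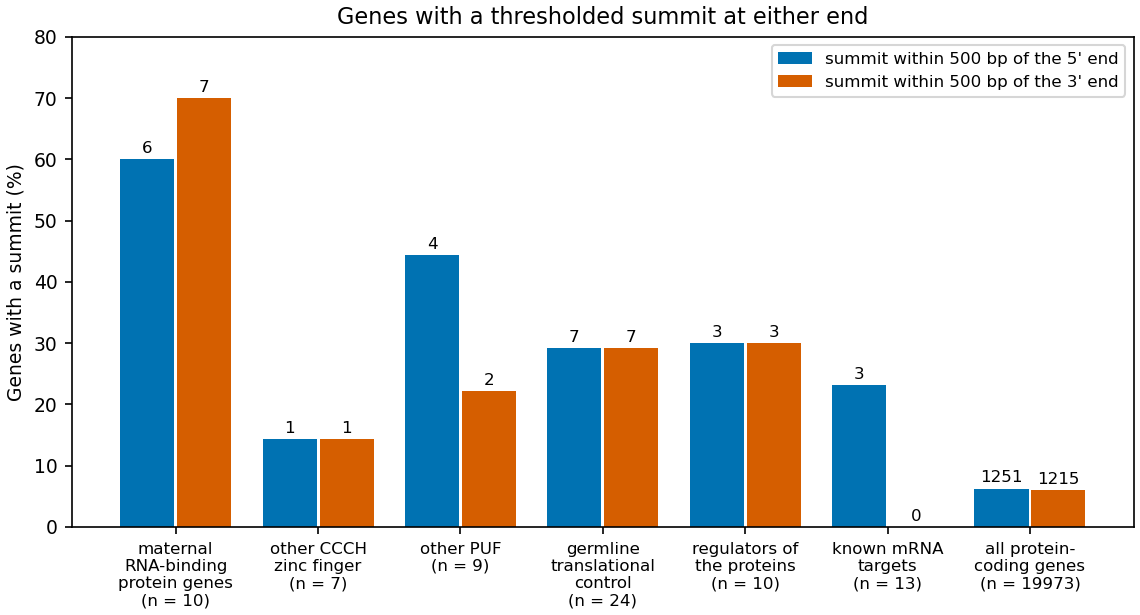
Share of genes (%, y axis) with a thresholded summit within 500 bp of the 5' end (blue) or of the 3' end (orange), for the 10 maternal RNA-binding protein genes, 5 related lists and all 19973 protein-coding genes (x axis). Numbers over the bars are genes; the 10 genes have 6 and 7, and all genes 1251 and 1215.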

How the data were processed

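The deposited files are peak lists on ce11, per the file descriptions deposited with each replicate. The sources used here name no aligner, peak caller or version and do not say how a control was used. The signal of a peak is the authors' value with scaling not given. The score, a whole number up to 1000, and a −log10 of the IDR capped at 5 were made by the authors. The lists hold no counts of reads. Depth is therefore unknown and no interval was computed.

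Genes came from Ensembl release 115 and bases from RefSeq, both on WBcel235, whose chromosome lengths hold every peak end. Summits used the deposited offset. Replicate signal is the highest peak of a replicate's ranked list overlapping the named peak by at least 1 bp. Percentiles rank genes by their strongest ranked summit within 500 bp, with 0 for none. Python 3.11.15 and NumPy 2.4.6 were used, and summit assignment was tested on simulated data.

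Members and lists were chosen with earlier results of these data known. Named were the members, genes near their summits, flanking genes, and the 3 strongest of each list or all in counts of 5 or fewer. The gene cey-3 was named because it had no mean. Alternatives were windows of 200 and 1000 bp, other lists, other 5' ends and single replicates. The 3' counts, 3' UTR counts and the word ACCGTA were added after seeing the data.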

Additional observations from a re-analysis of the deposited data

How the results depend on the processing

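The count of 6 members with a promoter peak (6.26% of all genes) was also found with a window of 1000 bp (8.76%), in the conservative list (6.14%), from the start of the coding sequence (6.04%) and with any 1 bp of the peak in the window (6.83%). It was 7 with any transcript start (6.88% of all genes) and 5 with each summit given to its nearest 5' end (5.21%), which drops mex-5. It was 2 with a window of 200 bp (mex-1 and spn-4, against 3.15% of all genes) and 2 with the 1370 stronger peaks (mex-1 and pos-1, against 4%). It ran from 2 to 5 in a single replicate's list, with 2 without replicate 1 (2.85%) and 5 without replicate 2 (3.02%). The median signal of the 6 was 37.51, from 29.79 to 46.15 in a single replicate, 37.51 with a near summit required, and 67.26 in the thresholded list itself, which joins both replicates. The median percentile of the 10 members was 93.3, from 90.9 to 96.7 in a single replicate, 90.7 with 1000 bp, 93.9 in the list from both replicates and 66.0 with 200 bp. The last window leaves out summits beyond 200 bp, where 4 of the 6 lie. The added count of 7 members with a 3' peak (6.08% of all genes) was 6 with 200 bp (3.48%), 6 in the conservative list (5.84%) and 2 in either replicate's list (2.38% and 2%). The conservative list met 5 of the 7 peaks, not those of mex-1 and oma-2, and added oma-1 by a different peak. The cause of the loss in single lists was not tested. No paired analysis was possible because both replicates belong to 1 group. Depth is unknown, so a missing peak is not read as absence of binding.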
